A study of Mus musculus with 16 samples.

Results

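The genes described are 10 genes of the antioxidant response, namely Nfe2l2, which encodes the transcription factor Nrf2, and Hmox1, Nqo1, Gclc, Gclm, Txnrd1, Srxn1, Slc7a11, Cat and Sod2. They were chosen by name, as Nrf2, its known targets and antioxidant enzymes, and each matched 1 of the 49315 genes in the table. All 10 passed the filter on low counts, which left 17469 genes. RNA was sequenced from the hippocampus of 16 mice in 4 groups of 4. Wild type and Kcna1 knockout animals were each fed either a standard or a ketogenic diet, with 1 genotype and 1 diet per group. Kcna1 encodes a subunit of a potassium channel gated by voltage, and mice without it have seizures. A ketogenic diet replaces most carbohydrate with fat. The labels name no strain, age, sex or duration of the diet, and nothing in them describes the knockout allele beyond its gene.

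Nrf2 is a transcription factor that is normally held and marked for degradation by Keap1. When oxidants or electrophiles modify Keap1, Nrf2 accumulates, pairs with a small Maf protein and binds antioxidant response elements upstream of its targets. In brain its targets are known to be used mainly by glia, and astrocytes supply neurons with glutathione precursors. Nrf2 is controlled largely as a protein, so its mRNA level is not a measure of its activity.

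On GRCm38, Nfe2l2 (ENSMUSG00000015839) lies at chr2:75675513-75704641 on the minus strand, and Cat (ENSMUSG00000027187) and Srxn1 (ENSMUSG00000032802) lie on the same chromosome at chr2:103453849-103485160 and chr2:152105516-152111376. Hmox1 (ENSMUSG00000005413) is at chr8:75093621-75100589 and Nqo1 (ENSMUSG00000003849) at chr8:107388225-107403206. Slc7a11 (ENSMUSG00000027737) is at chr3:49892526-50443614 and Gclm (ENSMUSG00000028124) at chr3:122245557-122270732. Gclc (ENSMUSG00000032350) is at chr9:77754535-77794485, Txnrd1 (ENSMUSG00000020250) at chr10:82833951-82897712 and Sod2 (ENSMUSG00000006818) at chr17:13006846-13040063. Counts were per gene, and the exons of 9 of the 10 share no bases with another annotated gene.

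Promoter windows were examined because the antioxidant response element is the sequence through which Nrf2 acts on its targets. RefSeq windows on GRCm38.p6, from 250 bases before to 50 bases after the transcript start, were matched by symbol for 8 of the 10 genes, in 10 windows since Txnrd1 has 3. The letters TGACNNNGC were in 4 of the 10 windows, on either strand, against 12.4% of all 32851 windows of 300 bases. A second spelling, TGAGNNNGC, was searched after the result of the first was seen and was in 2 of the 10 windows against 17.6% of all. Either spelling was in windows of 5 genes (Nfe2l2, Gclm, Txnrd1, Srxn1 and Slc7a11), in 5 of the 10 windows against 27.8% of all windows. A match is a description of the letters and not evidence of binding. A window without a match says nothing of elements that lie outside it. The windows of 3 genes are shown because Nfe2l2 is the gene that passed a test below, Gclm varied most like it among the 10, and Srxn1 held the most matches. Capitals mark each match of either spelling, which reads on the reverse strand where it appears as its complement. They lie at chr2:75704614-75704913 on the minus strand (Nfe2l2), chr3:122245307-122245606 on the plus strand (Gclm) and chr2:152105274-152105573 on the plus strand (Srxn1).
Nfe2l2: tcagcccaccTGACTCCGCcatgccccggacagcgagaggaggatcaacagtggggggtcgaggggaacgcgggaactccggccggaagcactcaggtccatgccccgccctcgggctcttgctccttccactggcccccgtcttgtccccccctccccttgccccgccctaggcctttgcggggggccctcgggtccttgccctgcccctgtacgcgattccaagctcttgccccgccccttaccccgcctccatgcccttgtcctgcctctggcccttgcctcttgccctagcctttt
Gclm: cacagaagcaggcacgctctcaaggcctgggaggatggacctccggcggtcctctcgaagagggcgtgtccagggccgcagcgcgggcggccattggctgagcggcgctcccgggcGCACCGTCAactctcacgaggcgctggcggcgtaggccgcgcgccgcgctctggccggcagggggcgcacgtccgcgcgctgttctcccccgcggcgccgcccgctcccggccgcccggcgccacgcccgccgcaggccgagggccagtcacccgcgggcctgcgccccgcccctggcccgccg
Srxn1: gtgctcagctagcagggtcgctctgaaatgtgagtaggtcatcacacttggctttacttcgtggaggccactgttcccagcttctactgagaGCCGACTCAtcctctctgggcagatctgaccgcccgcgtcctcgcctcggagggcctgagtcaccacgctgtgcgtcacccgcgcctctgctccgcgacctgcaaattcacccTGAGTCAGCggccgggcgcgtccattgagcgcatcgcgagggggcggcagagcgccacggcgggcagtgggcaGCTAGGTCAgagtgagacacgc
Counted from the transcript start, the match of Nfe2l2 began at base -240 and read TGACTCCGC, and that of Gclm began at base -134 and read TGACGGTGC on the reverse strand. Srxn1 held 3 matches. The one at base -45, TGAGTCAGC, shares its place with TGACTCA read on the other strand, the AP-1 site bound by Fos and Jun proteins. Srxn1 held TGACTCA also at base -102, and its window was the 1 of the 10 with that motif, which was in 5.2% of all windows.

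Total counts ranged from 13440230 to 22309504 per library. Libraries are named by the animal tag in their column. Kcna1 was lower in standard diet knockouts by -1.13 ± 0.15 (SE) on the log2 scale (edgeR, adjusted p = 0.0339) and on the ketogenic diet by -1.38 ± 0.15 (SE) (edgeR, adjusted p = 0.0032). It lay at 82.0 CPM (counts scaled to the effective library size, which is the total times its TMM factor) in the library labelled knockout KC888LL, on the standard diet, against 43.4 to 47.2 CPM in the other 7 knockout libraries and 107 to 130.1 CPM in wild type. Comparisons that use the knockout on the standard diet are therefore given with and without that library. Y-linked Ddx3y was between 56.5 and 65.1 CPM in KC872RL and KC873RR among standard diet knockouts, in 1 wild type library on each diet (KC890RL and KC846L) and under 2 CPM in the other 12 libraries. The sum of 8 markers of hippocampal fields ranged from 542 to 964 CPM, with none of them at 0 in any library. In bulk tissue, more cells of a type and more RNA per cell cannot be told apart.

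Levels per kilobase of exon differed widely between the 10 genes. Srxn1, which reactivates oxidised peroxiredoxins, was the most abundant at 29.9 ± 5.48 CPM per kb (SD over all 16 libraries). Gclc, the catalytic subunit of the enzyme that makes the rate-limiting step of glutathione synthesis, followed at 17.3 ± 1.20 CPM per kb. Cat, the peroxisomal enzyme catalase, was at 15.7 ± 2.22 CPM per kb, and Sod2, the mitochondrial superoxide dismutase, at 14.8 ± 0.935 CPM per kb. Their ranges over libraries overlapped with that of Gclc and with each other, so the order among the 3 lay within their spread. Txnrd1, the cytosolic thioredoxin reductase, was at 12.1 ± 0.784 CPM per kb and Gclm, the modifier subunit that pairs with Gclc, at 8.05 ± 0.627 CPM per kb. Slc7a11, the cystine importer that feeds glutathione synthesis, was at 3.76 ± 0.741 CPM per kb and Nfe2l2 at 2.86 ± 0.652 CPM per kb. Hmox1, the inducible enzyme that breaks down heme, was at 2.37 ± 1.08 CPM per kb, and Nqo1, a quinone reductase, was lowest at 1.74 ± 0.554 CPM per kb. The ranges of these last 4 overlapped, as did those of Txnrd1 and Sod2, while Srxn1 and Gclm did not overlap with their neighbours in the order. Lengths are unions of annotated exons, from 1553 bases for Nqo1 to 13922 bases for Slc7a11, and a long union lowers the value.

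The same 10 genes also differed in how much they varied between animals. Gclc, Gclm, Txnrd1 and Sod2 were within 1.26, 1.28, 1.26 and 1.29 times from the lowest to the highest of the 16 libraries. Cat spanned 1.60 times, Srxn1 1.93 times, Slc7a11 2.12 times, Nfe2l2 2.23 times, Hmox1 4.28 times and Nqo1 4.56 times. Hmox1 and Nqo1 rested on few reads, 28 to 178 and 15 to 91 counts per library, so counting error is part of their spread. The knockout library KC872RL, on the standard diet, held the highest value of 4 genes (Nfe2l2, Hmox1, Nqo1 and Cat) and the lowest of Gclc. The plot of all 10 genes by group shows the narrow genes beside the wide ones.

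**Figure D1:**
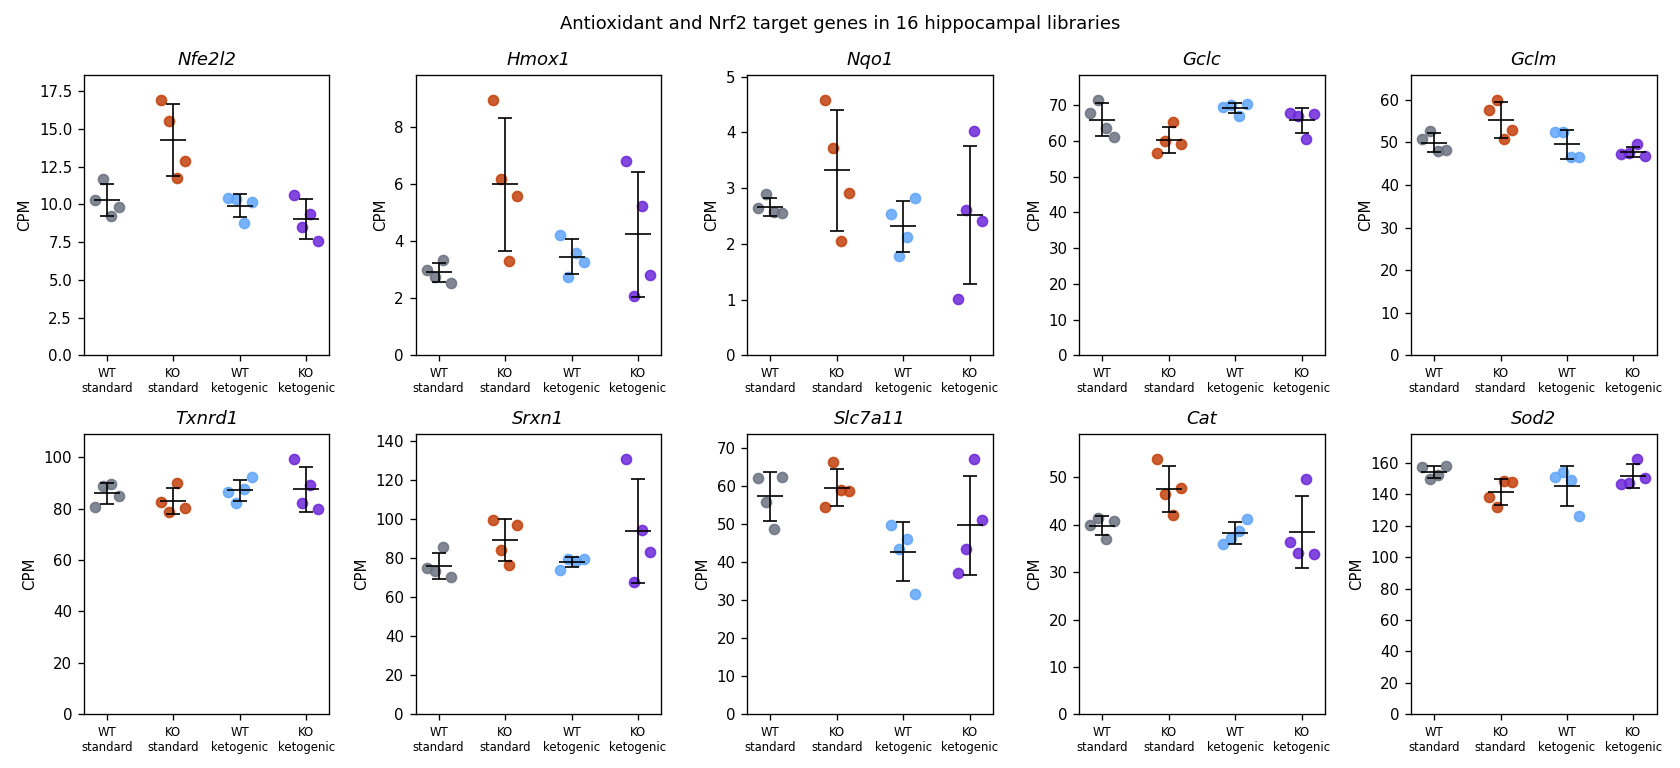
Counts scaled to the effective library size (CPM) of the 10 genes in each library, 4 per group, with WT for wild type and KO for Kcna1 knockout; the black dash and bars are the mean and SD. Nfe2l2 lies between 11.7 and 16.9 CPM in the knockout on the standard diet and between 7.58 and 10.6 CPM in the knockout on the ketogenic diet, while Txnrd1 differs little between groups.

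The diet in the knockout asks whether these genes differ between mutants fed the ketogenic and the standard diet. Nfe2l2 was lower on the ketogenic diet, at 0.632 times its level on the standard diet, and was the 1 gene of the 10 that passed the test. On the standard diet it was at 16.9, 15.6, 12.9 and 11.7 CPM in KC872RL, KC873RR, KC893RL and KC888LL. On the ketogenic diet it was at 10.6, 9.39, 8.52 and 7.58 CPM in KC913RR, KC934R, KC916RRL and KC935LL. Every standard diet library lay above every ketogenic one. The means were 14.3 ± 2.37 and 9.03 ± 1.30 CPM (SD, n = 4), and the log2 fold change was -0.66 ± 0.13 (SE), with a 95% interval from -0.93 to -0.39 (edgeR, adjusted p = 0.0192). Without KC888LL it was -0.74 ± 0.13 (SE) (edgeR, adjusted p = 0.00426). Of all tested genes 1.16% passed in this comparison, against 1 of these 10. DESeq2 and limma-voom also called Nfe2l2 alone of the 10, where they called 3.88% and 0.893% of all genes.

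The call for Nfe2l2 rested on several libraries. Leaving out KC872RL gave -0.57 (edgeR, adjusted p = 0.101), leaving out KC873RR gave -0.62 (edgeR, adjusted p = 0.0759) and leaving out KC916RRL gave -0.63 (edgeR, adjusted p = 0.0547), while the other 5 such fits kept the call. KC872RL and KC873RR were also the 2 knockout libraries that expressed Ddx3y, and the sum of 14 microglia markers was 654 and 658 CPM in them against 279 to 338 CPM in the other 14 libraries. A fit of only the compared groups also lost the call, at a similar log2 fold change that is given under the processing. With the log2 CPM of Xist as a covariate the difference was -0.53 (edgeR, adjusted p = 0.155). Among the 12 libraries that expressed Xist but not Ddx3y, 2 on the standard and 4 on the ketogenic diet, it was -0.45 (edgeR, adjusted p = 0.65). KC888LL and KC893RL, the other libraries labelled knockout on the standard diet, lay above all 4 ketogenic libraries at 11.7 and 12.9 CPM. Their microglia sums, 311 and 325 CPM, were also above those of the ketogenic knockouts, 279 to 299 CPM. Of the 14 microglia markers 0 were above 0 in this comparison, with a median log2 fold change of -0.76. The sum of 14 oligodendrocyte markers was 5391 to 5968 CPM in the knockout on the standard diet and 2091 to 3913 CPM on the ketogenic diet, and that of 6 blood markers was 65.8 to 113 CPM and 17.7 to 32.5 CPM, with 0 or 1 of the 6 at 0 per library. The sum of 8 choroid plexus markers was 49.0 to 561 CPM on the standard and 32.6 to 54.4 CPM on the ketogenic diet, and their median log2 fold change was -3.00. Of 7 meningeal fibroblast markers 6 were below 0, with a median of -0.47 and sums of 102 to 145 CPM and 61.4 to 108 CPM. All 8 hippocampal field markers were above 0, with a median of 0.36, and their sum was 542, 573, 552 and 725 CPM in KC872RL, KC873RR, KC893RL and KC888LL against 661 to 845 CPM on the ketogenic diet. Of these lists edgeR called 1 microglia, 11 oligodendrocyte and 4 blood markers lower, and 0 of the other 3 lists. The part of any of these cells in the difference of Nfe2l2 was not tested.

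Among the enzymes of glutathione synthesis, Gclm and Gclc had differences of opposite sign with the diet in the knockout. Gclm measured 59.9, 57.7, 53.0 and 50.8 CPM in KC873RR, KC872RL, KC893RL and KC888LL, and from 46.8 to 49.6 CPM on the ketogenic diet. These groups did not overlap, and the log2 fold change was -0.21 ± 0.06 (SE) (edgeR, adjusted p = 0.107). Gclm passed when KC888LL was left out, at -0.25 (edgeR, adjusted p = 0.0324). Omitting any other single library gave no call, and the difference shrank to -0.17 without KC873RR. Over all alternatives the log2 fold change of Gclm ranged from -0.25 to -0.12. KC873RR and KC872RL, which held its highest values, were also the knockout libraries that expressed Ddx3y and had raised microglia sums. The part of microglia in the difference of Gclm was not tested. An exon of Gclm overlaps the predicted gene Gm6061 on its strand and Gm17494 on the other, so its own share of reads is uncertain. Gclc differed by 0.12 ± 0.06 (SE) on that scale (edgeR, adjusted p = 0.302), and its groups overlapped. Slc7a11 ranged from 54.6 to 66.3 CPM on the standard diet and from 37.1 to 67.1 CPM on the ketogenic diet, with a difference of -0.26 ± 0.16 (SE) (edgeR, adjusted p = 0.446).

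Of the enzymes that remove superoxide and peroxide, Cat was at 47.6 ± 4.85 CPM on the standard and 38.5 ± 7.55 CPM on the ketogenic diet in the knockout (SD, n = 4). On the ketogenic diet 3 of its libraries lay between 33.8 and 36.3 CPM and KC934R at 49.7 CPM. The log2 fold change was -0.30 ± 0.10 (SE) (edgeR, adjusted p = 0.149), and it passed at -0.45 without KC934R (edgeR, adjusted p = 0.0328). Sod2 had a log2 fold change of 0.10 ± 0.06 (SE), Txnrd1 of 0.08 ± 0.07 (SE) and Srxn1 of 0.07 ± 0.15 (SE), none of which passed (edgeR, adjusted p from 0.446 to 0.851). Sod2 and Txnrd1 had 95% intervals within -0.06 and 0.23 on the log2 scale. Hmox1 and Nqo1 were at -0.496 ± 0.31 and -0.39 ± 0.30 (SE) (edgeR, adjusted p = 0.44 and 0.543), with intervals that reached from -1.15 to 0.16 and from -1.02 to 0.24. Single libraries decided both values. Hmox1 ranged from -0.23 without KC872RL to -0.81 without KC913RR, and was -0.05 among the 12 libraries that expressed Xist but not Ddx3y. Nqo1 ranged from -0.13 without KC913RR to -0.72 without KC934R, and turned to 0.03 among those 12 libraries. Srxn1 turned to -0.13 without KC913RR, and Txnrd1 fell to 0.015 without that library. Slc7a11 likewise ranged from -0.14 without KC913RR to -0.44 without KC934R. Without KC888LL the log2 fold changes were -0.70 for Hmox1, -0.56 for Nqo1, 0.17 for Gclc, -0.26 for Slc7a11, -0.35 for Cat, 0.13 for Sod2, 0.13 for Txnrd1 and 0.0096 for Srxn1, and none of these 8 passed (edgeR, adjusted p from 0.056 to 0.982).

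Over the 10 genes, 2 had groups that did not overlap and were lower on the ketogenic diet (Nfe2l2 and Gclm), where 3.72% of all tested genes did. At an unadjusted p under 0.05 there were 3 lower (Nfe2l2, Gclm and Cat) and 0 higher, against 9.10% and 7.83% of all genes. Their median log2 fold change was -0.24, against 0.01 over all genes tested, and 4 of the 10 were above 0, where 51.5% of all genes were. Without KC888LL 2 of the 10 were called lower and 0 higher, against 3.60% and 2.58% of all genes.

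**Figure D2:**
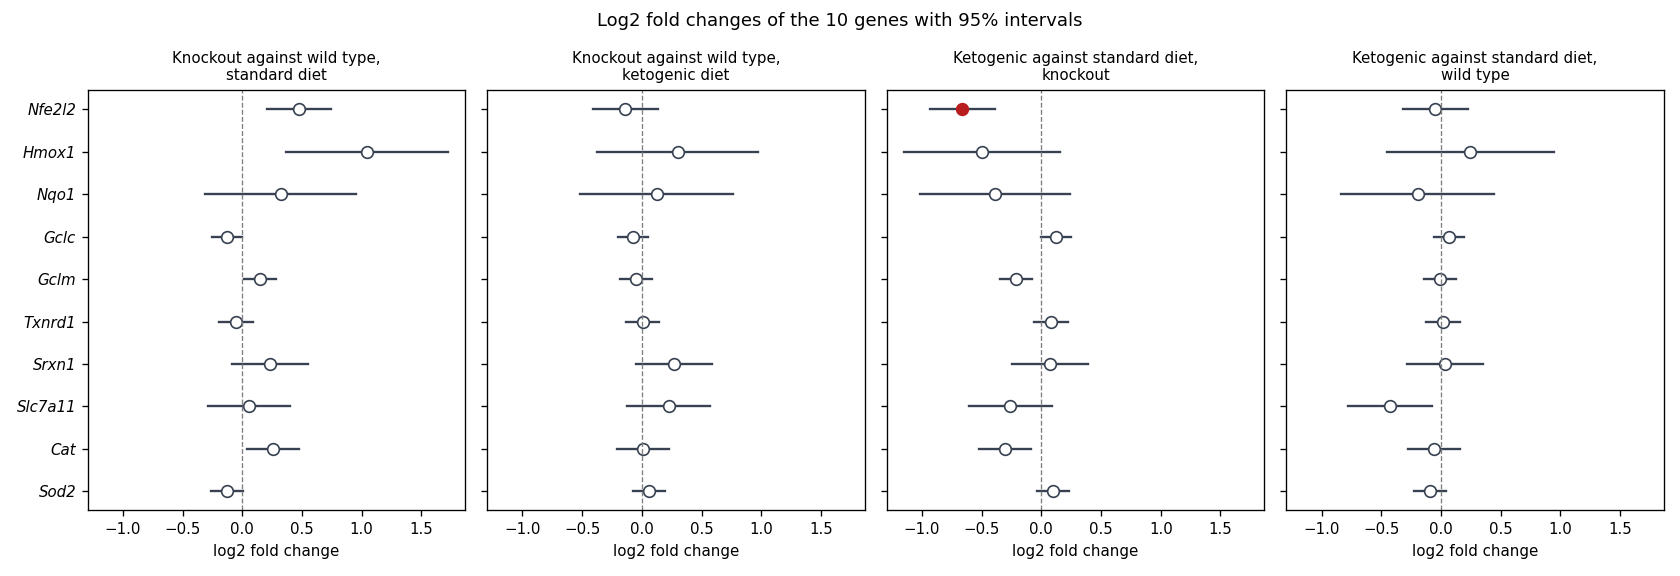
Log2 fold change of each of the 10 genes in the 4 pairwise comparisons, with 95% intervals from the edgeR fit over 16 libraries; a filled point marks an adjusted p under 0.05. The filled point is Nfe2l2 at -0.66 for the diet in the knockout, and Hmox1 and Nqo1 have the widest intervals.

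The genotypes on the standard diet were compared to ask what accompanies the loss of Kcna1. None of the 10 genes passed the test with all libraries, by edgeR, DESeq2 or limma-voom (0 of 10 each), where these called 0.00572%, 0.967% and 0.00572% of all genes. Nfe2l2 measured 9.25, 9.80, 10.3 and 11.7 CPM in the wild type libraries KC897RR, KC900RLL, KC890RL and KC894RLL. The lowest knockout library, KC888LL, and the highest wild type library, KC894RLL, were both at 11.7 CPM to 3 digits, and the ranges touched there without overlap. The log2 fold change of Nfe2l2 was 0.48 ± 0.13 (SE), with a 95% interval from 0.21 to 0.75 (edgeR, adjusted p = 0.194). Without KC888LL it was 0.55 and passed (edgeR, adjusted p = 0.0183), and without KC872RL it was 0.38. It was 0.26 among the 12 libraries that expressed Xist but not Ddx3y (edgeR, adjusted p = 0.999). All 14 microglia markers had log2 fold changes above 0 here, with a median of 0.59 and 0 called, and their sum was raised in KC872RL and KC873RR, which also held the highest levels of Nfe2l2. Of the 8 hippocampal field markers 7 were below 0, with a median of -0.24 and 0 called. All 10 general astrocyte and all 5 tested blood markers were above 0, with medians of 0.12 and 0.34. Above 0 were also 6 of 7 meningeal fibroblast and 8 of 10 endothelial markers, with medians of 0.38 and 0.18. None of the 8 choroid plexus markers was above 0, with a median of -0.14. In these lists 0 markers were called. The part of these cells in the difference was not tested.

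Hmox1 had the largest difference of the 10 genes in this comparison. Its levels in KC872RL, KC873RR, KC893RL and KC888LL were 8.95, 6.18, 5.58 and 3.30 CPM. Wild type libraries on this diet lay between 2.55 and 3.34 CPM, so KC888LL was the 1 knockout library within their range. The log2 fold change was 1.04 ± 0.32 (SE), with a 95% interval from 0.36 to 1.72 (edgeR, adjusted p = 0.202). It passed at 1.24 without KC888LL (edgeR, adjusted p = 0.0237) and was 0.78 without KC872RL and 0.57 with 1 surrogate variable, the lowest of its alternatives, none of which other than the fit without KC888LL passed. Of 13 reactive astrocyte markers 10 were tested, and all 10 had log2 fold changes above 0 in this comparison, with a median of 0.99 and 0 called. Their part in the difference of Hmox1 was not tested.

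Cat was higher in every knockout library on the standard diet, from 42.1 to 53.9 CPM, than in every wild type library, from 36.9 to 41.5 CPM. Its log2 fold change was 0.26 ± 0.10 (SE) (edgeR, adjusted p = 0.274). Sod2 was lower in every knockout library, from 131.9 to 149 CPM against 149.9 to 158 CPM in wild type, by -0.13 ± 0.06 (SE) on the log2 scale (edgeR, adjusted p = 0.377). Gclm and Gclc differed by 0.15 ± 0.06 and -0.13 ± 0.06 (SE), again with opposite signs (edgeR, adjusted p = 0.302 and 0.335). Srxn1 differed by 0.23 ± 0.15, Nqo1 by 0.32 ± 0.30, Slc7a11 by 0.06 ± 0.16 and Txnrd1 by -0.05 ± 0.07 (SE), with adjusted p from 0.501 to 0.908 (edgeR). Without KC888LL the log2 fold changes were 0.31 for Cat, -0.15 for Sod2, 0.18 for Gclm, -0.18 for Gclc, 0.296 for Srxn1, 0.49 for Nqo1, 0.06 for Slc7a11 and -0.10 for Txnrd1, and none of these 8 passed (edgeR, adjusted p from 0.0988 to 0.902). Nqo1 was 0.12 without KC872RL. It turned to -0.11 among the 12 libraries that expressed Xist but not Ddx3y.

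In that comparison 2 of the 10 genes were higher without overlap (Nfe2l2 and Cat) and 1 was lower (Sod2), against 2.97% and 2.89% of all genes. At an unadjusted p under 0.05 there were 4 higher (Nfe2l2, Hmox1, Gclm and Cat) and 1 lower (Gclc), against 7.64% and 6.69% of all genes. The median log2 fold change of the 10 was 0.19, against 0.00 over all genes, and 7 of the 10 were above 0, where 51.1% of all were. Leaving out KC888LL gave 2 called higher and 0 lower, against 2.88% and 2.85% of all genes. This comparison shares its knockout libraries with the diet comparison above, so opposite signs in them are not independent.

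On the ketogenic diet, knockout and wild type were compared to see whether the genes differ once both are on the diet. None of the 10 passed the test by edgeR, DESeq2 or limma-voom, 0 were at an unadjusted p under 0.05 and 0 had groups without overlap, where the 3 tools called 0.0172%, 0.258% and 0.0114% of all genes. Of all genes 5.24% and 3.97% were higher and lower at that p, and 2.00% and 1.98% without overlap. Above 0 were 7 of the 10, against 51.0% of all genes. Nfe2l2 was at 9.03 ± 1.30 CPM in the knockout and 9.93 ± 0.773 CPM in wild type (SD, n = 4), which differed on the log2 scale by -0.14 ± 0.13 (SE), with a 95% interval from -0.41 to 0.14 (edgeR, adjusted p = 0.774). The log2 fold changes of the other 9 genes ranged from -0.08 for Gclc to 0.30 for Hmox1. All 14 oligodendrocyte, all 5 tested blood and all 8 choroid plexus markers were below 0, with medians of -0.39, -1.64 and -2.55, and 0 of them were called. All 10 tested reactive astrocyte markers were above 0, with a median of 1.42 and 0 called. Above 0 were 2 of 14 microglia markers, with a median of -0.12 and 0 called.

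Hmox1 and Srxn1 varied widely within the knockout on the ketogenic diet. Hmox1 measured 6.82 CPM in KC913RR and 5.25 CPM in KC934R, but 2.82 CPM in KC935LL and 2.09 CPM in KC916RRL, against 2.75 to 4.21 CPM in wild type. Srxn1 measured 130.9, 94.3, 83.2 and 67.8 CPM in KC913RR, KC934R, KC935LL and KC916RRL, against 74.1 to 79.6 CPM in wild type. Hmox1 thus fell into 2 pairs, while Srxn1 was spread out, with KC913RR far above the rest and 3 of its 4 libraries above the wild type range. Without KC913RR the difference of Hmox1 from wild type was -0.01 in place of 0.30, and that of Srxn1 was 0.07 in place of 0.27 (log2 fold changes). Nqo1 did not share this order, since KC913RR held its lowest value, 1.00 CPM from 15 counts, and KC934R 4.03 CPM.

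KC913RR and KC934R were also the ketogenic libraries with high markers of reactive astrocytes. The sum of 13 such markers was 2522 CPM in KC913RR and 1296 CPM in KC934R, and 402 and 392 CPM in KC935LL and KC916RRL. On the standard diet it was 2909, 1655, 798 and 457 CPM in KC872RL, KC873RR, KC893RL and KC888LL, against 386 to 514 CPM in all 8 wild type libraries, with 0 to 2 of the 13 at 0 in any library. Hmox1 was above 5 CPM in the 5 libraries where that sum was at least 798 CPM and at most 4.21 CPM in the other 11. Srxn1 did not follow the sum in the same way on the standard diet, with 84.4 CPM in KC873RR, below 96.9 CPM in KC893RL and below 85.9 CPM in the wild type library KC897RR, whose sum was 483 CPM. The marker Gfap is among the 3 genes of nearest pattern to Hmox1 named below. Microglia markers were not raised in KC913RR and KC934R, at 299 and 298 CPM. The part of reactive astrocytes in the values of Hmox1 and Srxn1 was not tested.

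**Figure D3:**
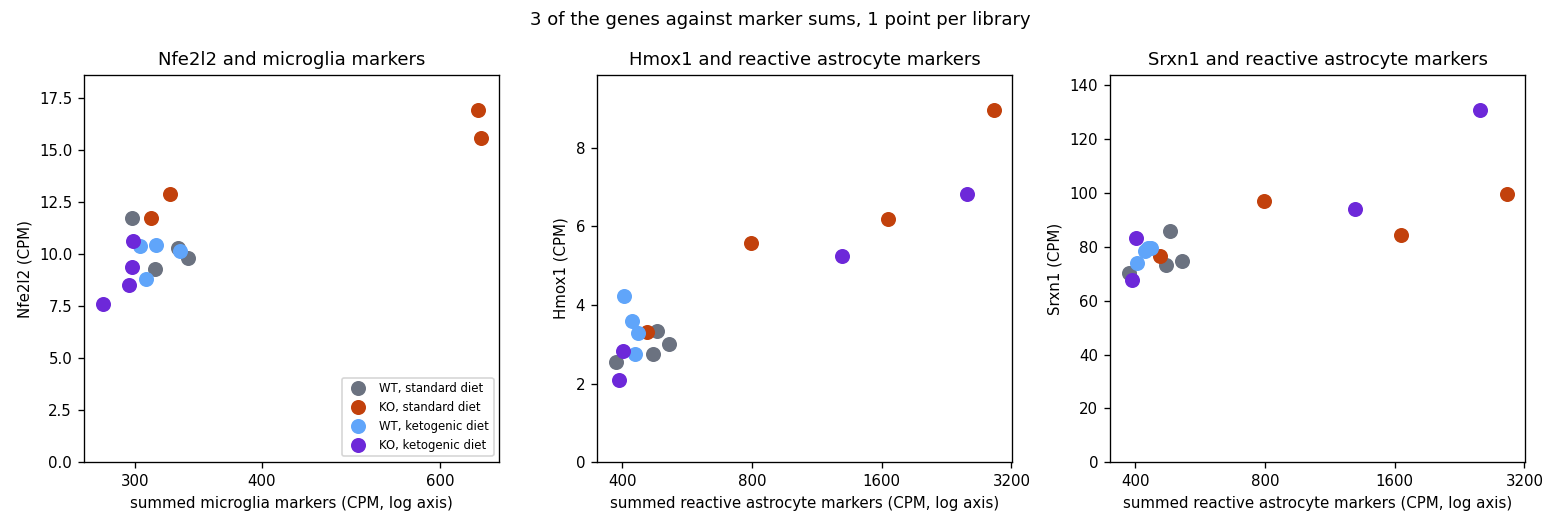
Nfe2l2 against the summed CPM of 14 microglia markers, and Hmox1 and Srxn1 against that of 13 reactive astrocyte markers, on log x axes, with 1 point per library coloured by group. Hmox1 is above 5 CPM in the 5 libraries with the highest astrocyte sums, and Nfe2l2 is highest in the 2 libraries with raised microglia markers.

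Wild type mice on the ketogenic and the standard diet were compared to see the diet without the mutation. None of the 10 genes passed the test by edgeR, DESeq2 or limma-voom, 1 was at an unadjusted p under 0.05 and 0 had groups without overlap, where the 3 tools called 0.0114%, 0.0687% and 0.0114% of all genes. Of all genes 2.44% and 3.01% were higher and lower at that p, and 2.46% and 2.42% without overlap. Above 0 were 4 of the 10, against 49.9% of all genes. That gene was Slc7a11, at 62.4, 62.2, 55.9 and 48.7 CPM on the standard diet and 49.7, 46.0, 43.4 and 31.7 CPM on the ketogenic diet. Its log2 fold change was -0.43 ± 0.16 (SE) (edgeR, adjusted p = 0.819), and without KC846L, the library at 31.7 CPM, it was -0.30. All 14 oligodendrocyte markers were below 0 in this comparison, with a median log2 fold change of -0.49 and 0 called, and their sums were 4334 to 6742 CPM on the standard and 3576 to 4557 CPM on the ketogenic diet. Meningeal fibroblast markers were below 0 in 6 of 7, with a median of -0.47 and 0 called, and KC846L held the lowest sum of both lists among the 8 wild type libraries. All 8 hippocampal field markers were above 0, with a median of 0.14 and 0 called. KC846L, the ketogenic wild type library that expressed Ddx3y, held the highest sum of that list, 964 CPM. Their part in the difference of Slc7a11 was not tested. Nfe2l2 was at 10.3 ± 1.06 and 9.93 ± 0.773 CPM (SD, n = 4), which differed on the log2 scale by -0.05 ± 0.13 (SE), with an interval from -0.32 to 0.23 (edgeR, adjusted p = 0.998).

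The interaction asks whether the diet difference is itself different between the genotypes. No gene of the 10, and 0% of all genes, passed it by edgeR, while DESeq2 and limma-voom also gave 0 of 10, against 0.0401% and 0% of all genes. At an unadjusted p under 0.05 there were Nfe2l2 and Gclm below 0 and Sod2 above 0, which is 2 of 10 and 1 of 10 against 4.09% and 3.38% of all genes. Above 0 were 5 of the 10, against 51.0% of all genes. For Nfe2l2 the diet difference was lower in the knockout than in wild type by -0.61 ± 0.18 (SE) on the log2 scale, with an interval from -0.998 to -0.229 (edgeR, adjusted p = 0.654, range 0.149 to 0.953 over fits that left out 1 library). For Hmox1 it was -0.74, and from -1.05 without KC913RR to -0.48 without KC872RL, and for Nqo1 -0.195, and from -0.53 without KC934R to 0.06 without KC913RR. It was -0.25 for Cat, -0.20 for Gclm, 0.19 for Sod2, 0.17 for Slc7a11, 0.06 for Txnrd1, 0.06 for Gclc and 0.04 for Srxn1. Cat ranged from -0.39 without KC934R to -0.18 without KC872RL. Gclc ranged from 0.017 without KC894RLL to 0.098 without KC888LL. Without KC888LL the interaction was -0.695 for Nfe2l2, -0.94 for Hmox1, -0.37 for Nqo1, -0.297 for Cat and -0.24 for Gclm, and from -0.03 for Srxn1, whose sign turned, to 0.21 for Sod2 among the other 5, and none of the 10 passed (edgeR, adjusted p from 0.149 to 0.978). All 14 microglia, all 14 oligodendrocyte and all 5 tested blood markers were below 0 in the interaction, with medians of -0.75, -0.38 and -1.99. Above 0 were 1 of 8 choroid plexus and 2 of 10 general astrocyte markers, with medians of -2.47 and -0.13. In the other direction, 7 of 8 hippocampal field markers were above 0, with a median of 0.22. In these lists 0 markers were called, and the part of these cells was not tested. The diet difference of Nfe2l2 was thus not shown to depend on genotype after adjustment.

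The genes around Nrf2 were read from 5 lists with 65 genes, of which 64 were tested. With all libraries 0 of the 64 passed in any of the 5 comparisons by edgeR, while DESeq2 called 1 for genotype under the standard diet and 3 for the diet in the knockout, where it called 0.967% and 3.88% of all genes, and limma-voom 0. The DESeq2 calls were Gsta4 at -0.33 in the former (adjusted p = 0.0417), and Gsta4 at 0.28, Mgst1 at -0.88 and Fth1 at -0.18 in the latter (adjusted p = 0.0469, 0.0352 and 0.0345). At an unadjusted p under 0.05 there were 6 higher and 2 lower in the knockout on the standard diet, and 8 higher and 9 lower with the diet in the knockout, against 7.64%, 6.69%, 7.83% and 9.10% of all genes. The median log2 fold change of the 64 was 0.04 in the former and -0.01 in the latter.

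Of 12 regulators and partners of Nrf2, 0 passed by edgeR. Keap1, which holds Nrf2, was at 65.7 ± 1.46 and 68.5 ± 2.46 CPM in wild type and knockout on the standard diet, and at 70.7 ± 4.33 and 72.5 ± 2.82 CPM on the ketogenic diet (SD, n = 4). It was named after its values were seen, as was the small Maf gene Maff, whose log2 fold change of 0.91 ± 0.53 (SE) for the diet in the knockout came from KC913RR at 5.89 CPM against 0.773 to 1.23 CPM in the others. Mafg, the gene of another small Maf partner, had the smallest p of this list on the standard diet, at 99.6 ± 8.01 CPM in knockouts against 114 ± 8.65 CPM in wild type (edgeR, adjusted p = 0.231). Btrc, part of a ligase that also marks Nrf2 for degradation, had the smallest p for the diet in the knockout, at 119.6 ± 3.55 and 130.0 ± 1.91 CPM (edgeR, adjusted p = 0.218). Its ketogenic libraries all lay above the standard diet libraries.

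Of 17 genes of glutathione synthesis and use, 0 passed by edgeR. Gsta4, a glutathione transferase that clears lipid aldehydes, was at 33.0 ± 3.80 CPM in knockouts against 41.4 ± 3.36 CPM in wild type under the standard diet, with no overlap (log2 fold change -0.33 ± 0.08 (SE); edgeR, adjusted p = 0.192). Mgst1, a membrane-bound glutathione transferase, was at 5.51 ± 1.77 CPM on the standard and 2.96 ± 1.17 CPM on the ketogenic diet in the knockout (log2 fold change -0.88 ± 0.26 (SE); edgeR, adjusted p = 0.103). Among 11 genes of the thioredoxin and peroxiredoxin system, Prdx6, a peroxiredoxin abundant in astrocytes, was at 204 ± 65.7 CPM in knockouts against 145 ± 6.74 CPM in wild type under the standard diet (edgeR, adjusted p = 0.278). Prdx1, a cytosolic peroxiredoxin, was at 72.3 ± 7.10 CPM on the standard and 62.4 ± 5.47 CPM on the ketogenic diet in the knockout (edgeR, adjusted p = 0.169).

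Of 7 genes that supply NADPH, Nnt, a mitochondrial transhydrogenase, was at 26.0 ± 2.68 CPM in knockouts against 21.8 ± 1.12 CPM in wild type under the standard diet (edgeR, adjusted p = 0.278). Tkt, the transketolase of the pentose phosphate pathway, was at 89.0 ± 6.60 CPM on the standard and 98.8 ± 3.15 CPM on the ketogenic diet in the knockout, with no overlap (edgeR, adjusted p = 0.204). In the list on superoxide, heme, iron and quinones 17 of 18 genes were tested. Fth1, the ferritin heavy chain, was at 1203.5 ± 72.0 CPM in knockouts against 1090.3 ± 18.7 CPM in wild type under the standard diet (edgeR, adjusted p = 0.273). On the ketogenic diet it was at 1058 ± 59.7 CPM in the knockout, with no overlap with the standard diet (edgeR, adjusted p = 0.113). Ferritin and peroxiredoxin genes have processed copies, so their own share of reads is uncertain.

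Leaving out KC888LL changed the number of calls in these lists from 0 to 4 for genotype under the standard diet. Higher were Prdx6 at 0.63 ± 0.17 and the ferritin light chain Ftl1 at 0.32 ± 0.08, and lower were Gsta4 at -0.37 ± 0.09 and Mafg at -0.25 ± 0.07 (log2 fold change ± SE; edgeR, adjusted p from 0.0243 to 0.0489). For the diet in the knockout that fit called 9 of them, of which Mgst1 at -1.06 ± 0.24, Gpx3 at -0.72 ± 0.20, Abcc4 at -0.39 ± 0.11, Ftl1 at -0.37 ± 0.08, Prdx1 at -0.26 ± 0.08 and Fth1 at -0.22 ± 0.06 were lower. Gstm1 at 0.38 ± 0.10, Gsta4 at 0.32 ± 0.09 and Txn2 at 0.22 ± 0.06 were higher (log2 fold change ± SE). In that fit 2.88% and 2.85% of all genes were called higher and lower in the former comparison and 2.58% and 3.60% in the latter. KC888LL had the lowest reactive astrocyte sum of the standard diet knockouts, and 2 of the 3 that remain in that fit, KC872RL and KC873RR, had the raised microglia sums. Prdx6 was at 281, 234, 162 and 138 CPM in KC872RL, KC873RR, KC893RL and KC888LL, and Ftl1 at 157, 139.5, 119.9 and 103 CPM, which is the order of their reactive astrocyte sums. This order did not hold on the ketogenic diet. KC913RR, with the highest sum among ketogenic knockouts, had Prdx6 at 117 CPM, against 142 to 197 CPM in the others. Its Ftl1 was at 108 CPM, below 112 CPM in KC916RRL, which had the lowest sum of that group. The part of glial cells in these calls was not tested. Genes in this paragraph were named after their values were seen.

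**Figure D4:**
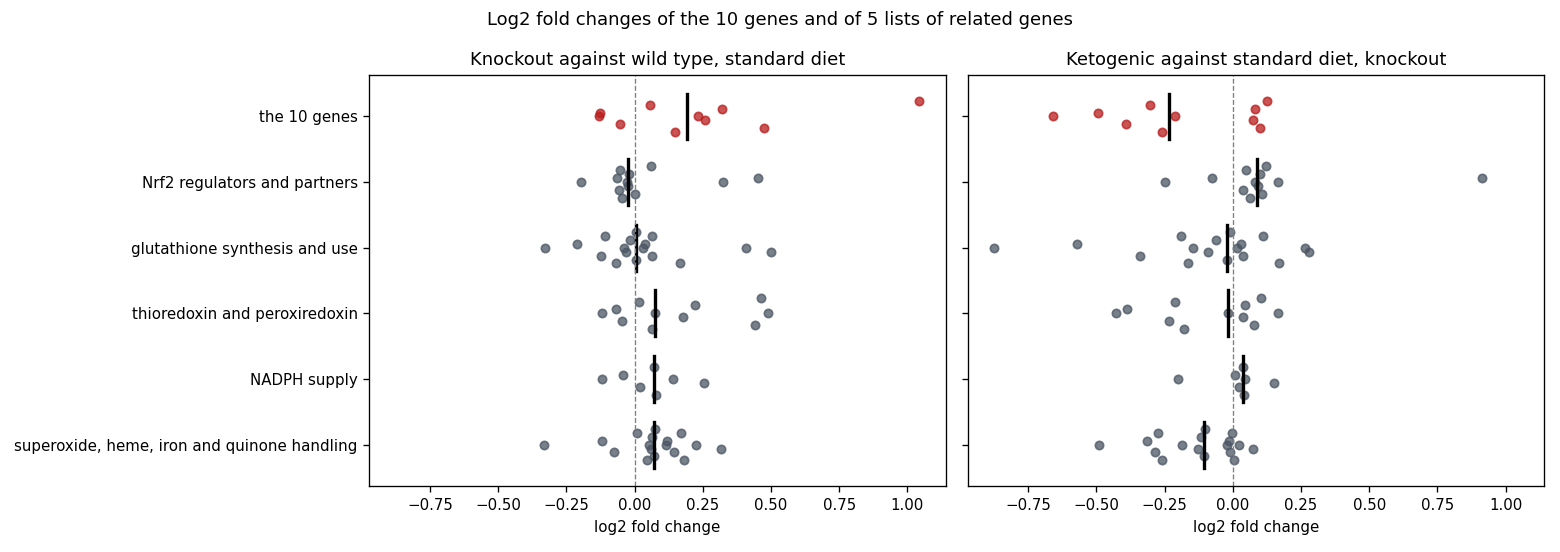
Log2 fold changes of the 10 genes (red) and of the tested genes of 5 related lists (grey) in 2 comparisons, 1 point per gene, with the median of each list as a black bar. The medians of the 10 genes are 0.19 and -0.24, while those of the lists lie between -0.10 and 0.09; no grey gene passed the edgeR test.

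The genes of nearest pattern were found by the mean absolute difference of z-scored log2 CPM over the 16 libraries, among 15420 genes with a mean of at least 1 CPM. For Nfe2l2 these were Kcnk6, Snx5 and Tmem59, with differences of 0.27, 0.30 and 0.32. Hmox1 was nearest to Scg2, Hspb6 and Gfap, at 0.30, 0.30 and 0.31. For Srxn1 they were Ptprn, Cct4 and 6430548M08Rik, at 0.25, 0.28 and 0.29. Within the 10 genes the nearest pairs were Nfe2l2 with Gclm at 0.40 and Hmox1 with Srxn1 at 0.44.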

How the data were processed

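RNA of 16 mouse hippocampi in 4 groups was sequenced, and the authors deposited raw counts per gene in 1 table, with whole-number values and unequal totals. The submitters' processing notes name mm10 and DESeq2 with no role; the aligner, counter, annotation and strand setting are not given in the sources used here. Columns carry an animal tag, genotype and diet but no replicate number, so each column was assigned to its group only. Positions and exon lengths are from GENCODE M21 (GRCm38), which held 49056 of the 49315 identifiers.

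Genes were filtered by filterByExpr, scaled by TMM and fitted with edgeR 4.0.16 (R 4.3.3), 1 coefficient per group over all 16 libraries with 12 residual degrees of freedom, by the robust quasi-likelihood F test. Adjusted p-values are Benjamini-Hochberg values over all 17469 tested genes, and genes under 0.05 are called. CPM used effective library sizes, and log2 CPM a prior count of 2. The smallest total count was 13440230. Intervals are 95%. The p-values set a difference between groups against the spread between libraries within groups, as estimated over these 16 samples.

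The members, lists and tests were chosen with earlier results of these data known. Named were the 10 genes, Kcna1, and from the lists the genes called in any comparison and the gene of smallest p in the genotype comparison under the standard diet and in the diet comparison among knockouts; others are said to be named after their values were seen. Marker lists of 10 cell types or regions were summed in CPM. Alternatives were DESeq2 1.42.0, limma-voom (limma 3.58.1), DESeq2 or upper-quartile scaling, other filters, 1 surrogate variable (sva 3.50.0), fits without robust estimation or of just the compared groups, Xist as a covariate, a subset of 12 libraries (Xist over 100 CPM, Ddx3y below 10 CPM), and each library left out.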

Additional observations from a re-analysis of the deposited data

Results flagged for a closer look

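In 3 of the 40 sets of 4 libraries (10 genes in 4 groups), 1 library lay far from the other 3, by Dixon's criterion, where chance alone gives about 1 in 20. Nfe2l2 was at 8.78 CPM in the wild type library KC844RR on the ketogenic diet, below the others. In the knockout library KC934R on the ketogenic diet, Gclc was at 60.6 CPM, below the others, and Cat at 49.7 CPM, above them.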

How the results depend on the processing

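No paired analysis was possible because the columns carry no replicate number. Nfe2l2 with the diet in the knockout kept its call under DESeq2, limma-voom, both other scalings, both other filters, no robust estimation and 1 surrogate variable. Called genes of the 10 went from 1 to 0 with Xist as a covariate, in the 12 libraries with Xist and in a fit of only the groups compared (-0.67, edgeR, adjusted p = 0.143). They ranged from 0 (without KC872RL, for example) to 2 (without KC888LL) over fits that left out 1 library, as they did for genotype on the standard diet. The cause was not tested.

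Over all genes, calls for genotype on the standard diet numbered 1, and 18 with no filter, 2 with at least 10 counts in every library, 169 by DESeq2, 0 with 1 surrogate variable, 2 with Xist as a covariate, 0 in the 12 libraries, 0 with only the groups compared, and 0 to 1016 with 1 library left out. For genotype on the ketogenic diet there were 3, and 11 with no filter, 45 by DESeq2, 5 without robust estimation, 0 with 1 surrogate variable, 1 in the 12 libraries and 1 to 13 with 1 left out. For the diet in the knockout there were 202, and 677 by DESeq2, 438 with 1 surrogate variable, 7 with Xist, 3 in the 12 libraries, 9 with only the groups compared and 28 to 1096 with 1 left out. For the diet in wild type there were 2, and 1 with upper-quartile scaling, 12 by DESeq2, 0 without robust estimation, 1 with Xist, 0 in the 12 libraries, 11 with only the groups compared and 0 to 3 with 1 left out. For the interaction there were 0, and 2 with no filter and 7 by DESeq2.

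Signs turned only for differences that were not called. In the 12 libraries Nqo1 turned to -0.11 (genotype, standard diet), 0.034 (diet, knockout) and 0.35 (interaction), Gclm to 0.020 and Txnrd1 to -0.046 (diet, wild type). With 1 surrogate variable Hmox1, Txnrd1, Srxn1 and Cat turned to -0.42, -0.065, -0.033 and -0.071 (genotype, ketogenic diet) and Srxn1 to -0.073 (interaction). With Xist as a covariate Nqo1 turned to 0.18 (interaction) and Txnrd1 to -0.0010 (genotype, ketogenic diet), and Txnrd1 was -0.00098 with no filter and -8.6e-05 with upper-quartile scaling. With 1 library left out, ranges that crossed 0 were -0.013 to 0.10 for Slc7a11 (genotype, standard diet). For genotype on the ketogenic diet they were -0.14 to 0.076 for Cat, -0.0070 to 0.51 for Hmox1, -0.21 to 0.39 for Nqo1, -0.0013 to 0.10 for Sod2 and -0.056 to 0.053 for Txnrd1. For the diet they were -0.13 to 0.20 for Srxn1 in the knockout, and in wild type -0.039 to 0.019 for Gclm, -0.095 to 0.021 for Nfe2l2, -0.0016 to 0.10 for Srxn1 and -0.010 to 0.046 for Txnrd1. For the interaction they were -0.53 to 0.063 for Nqo1, -0.014 to 0.29 for Slc7a11, -0.16 to 0.16 for Srxn1 and -0.0045 to 0.10 for Txnrd1. Low counts limit Hmox1 and Nqo1.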
